A study of Mus musculus with 22 samples.

Results

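The arcuate nucleus (ARC) of 8-week-old male mice was compared between offspring of obese mothers (Off-Ob, 5 libraries) and offspring of lean control mothers (Off-C, 6 libraries), for all 172 miRNAs of the ARC table. These 11 libraries were chosen by nucleus alone, out of 22 in the series, the other 11 being from the paraventricular nucleus (PVH). Mothers of Off-Ob mice ate a high-fat diet with sweetened condensed milk before and through pregnancy and lactation, while mothers of Off-C mice ate chow. All offspring were wild type C57bl6J and ate chow from weaning, so the exposure covers the time before conception, gestation and suckling together. The study could not discount that offspring also ate the mothers' high-fat pellets late in the weaning period. The tissue was cut from frozen sections by laser capture, and each library came from 1 mouse. Libraries are named here by mouse. The study counts 1 mouse per litter for each outcome.

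The ARC lies at the base of the hypothalamus and holds the Pomc and Agrp neurons, which read leptin, insulin and nutrients and drive satiety and feeding. A miRNA is a short RNA that guides the silencing complex to messenger RNAs, mainly by pairing of its seed, bases 2 to 8, with the target, so miRNAs with a common seed can share targets. Mice whose Pomc neurons lack Dicer, the enzyme that cuts miRNAs out of their hairpins, become obese.

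The mature miRNAs on which the results turn are given with the seed in capitals, as RefSeq has them for GRCm38.p6. Of the 172 miRNAs, 149 matched a RefSeq mature sequence.
miR-505-5p: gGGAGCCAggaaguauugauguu
miR-344e-3p: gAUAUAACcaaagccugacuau
miR-379-3p: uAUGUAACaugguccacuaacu
miR-5126: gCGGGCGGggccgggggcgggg
miR-6538: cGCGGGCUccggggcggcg
miR-181c-5p: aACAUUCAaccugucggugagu
miR-132-3p: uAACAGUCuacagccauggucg
miR-212-3p: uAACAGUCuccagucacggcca
miR-434-3p: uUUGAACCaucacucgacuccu
miR-24-1-5p: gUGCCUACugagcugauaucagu
miR-326-3p: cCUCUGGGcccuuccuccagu
let-7c-5p: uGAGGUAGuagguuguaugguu
let-7g-5p: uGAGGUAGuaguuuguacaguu
let-7k: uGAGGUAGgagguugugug
The first 5 were higher in Off-Ob mice on average, and the 6 from miR-181c-5p to miR-326-3p were lower. The last 3 belong to the let-7 family, whose 10 measured members, miR-98-5p included, share the seed GAGGUAG. miR-132-3p and miR-212-3p share the seed AACAGUC. miR-5126 and miR-6538 are made almost wholly of G and C, at 100% and 94.7%.

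Before any comparison, 2 of the 5 Off-Ob libraries stood apart from the other 9 of the ARC. Reads of let-7 and miR-98 were 79.1% of all reads in F42A (Wilson 95% interval 78.5 to 79.6%) and 64.2% in F6A (63.8 to 64.7%). They were 34.7, 36.2 and 40.3% in the other 3 Off-Ob libraries, against 33.8 to 46.8% in Off-C libraries. F42A was also the shallowest, with 22680 reads, against 46817 to 91790 in the other Off-Ob and 35953 to 54964 in the Off-C libraries. Outside let-7 it held 4746 reads, and 20 miRNAs had none, against 0 to 2 miRNAs in each of the other ARC libraries. Its median Spearman correlation with the other ARC libraries, taken across miRNAs, was 0.707, that of F6A was 0.828, and those of Off-C libraries were 0.928 to 0.958. The PVH library of the same mouse F42A did not share this profile, since let-7 took 31.7% of its reads and no miRNA was at 0. A PVH library of mouse F6A was not analysed here. The intervals treat each read as an independent draw and do not measure the spread between mice. As reads copied by PCR are not independent molecules, they may be too narrow even for counting error.

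**Figure D1:**
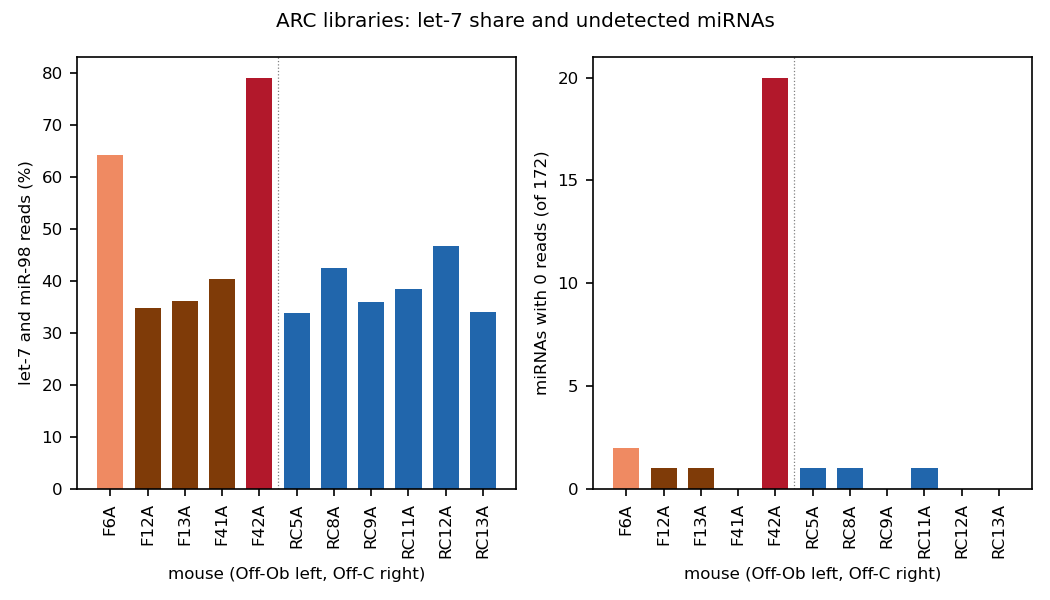
Share of reads from let-7 and miR-98 (left, %) and number of miRNAs with 0 reads (right, of 172) in each ARC library, with the 5 Off-Ob mice left of the 6 Off-C mice. F42A and F6A reach 79.1 and 64.2% on the left, and F42A alone reaches 20 miRNAs on the right.

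Because so many reads went to let-7 in these 2 libraries, each miRNA was examined on 2 scales. The first was the deposited log2(CPM + 1), where CPM are library-scaled read counts, after the authors' scale factor. The second was the centred log-ratio: log2 of the reads plus 0.5, minus its mean over the 162 miRNAs outside let-7 and miR-98 in the same library. A value of 1 there means that a miRNA was at 2 times the geometric mean of those 162. The let-7 share and the authors' scale factor drop out of it, except through the 0.5 reads added. That addition weighs more where few reads lie outside let-7, and so lifts low counts in F42A. Without a read in either, miR-490-3p was at -3.70 in F42A and at -6.49 in the lowest Off-C library.

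No miRNA of the ARC passed an adjusted p of 0.05 between Off-Ob and Off-C mice on either scale. By limma, 0 of 172 miRNAs passed on log2(CPM + 1), with a smallest adjusted p of 0.32, and 0 of 162 on the centred log-ratio, with a smallest of 0.57. The threshold of the study was an unadjusted p of 0.05, which it applied to a likelihood ratio test in edgeR, not to limma. By limma 10 of 172 were past that p on log2(CPM + 1), which is 5.81% (3.49% higher and 2.33% lower). On the centred log-ratio 12 of 162 were past it, which is 7.41% (4.94% higher and 2.47% lower). These shares lie close to the 5% of miRNAs that such a threshold passes where nothing differs. On both scales 5 miRNAs stood on the higher side in Off-Ob mice, miR-344e-3p, miR-505-5p, miR-5105, miR-5126 and miR-6540-5p, and miR-181c-5p and miR-132-3p on the lower side. Centring brought in miR-6538, miR-6243 and miR-379-3p as higher and miR-212-3p and miR-434-3p as lower, while miR-24-1-5p, miR-326-3p and let-7g-5p were past the threshold on log2(CPM + 1) only. let-7g-5p was not tested on the centred scale, which leaves its family out.

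**Figure D2:**
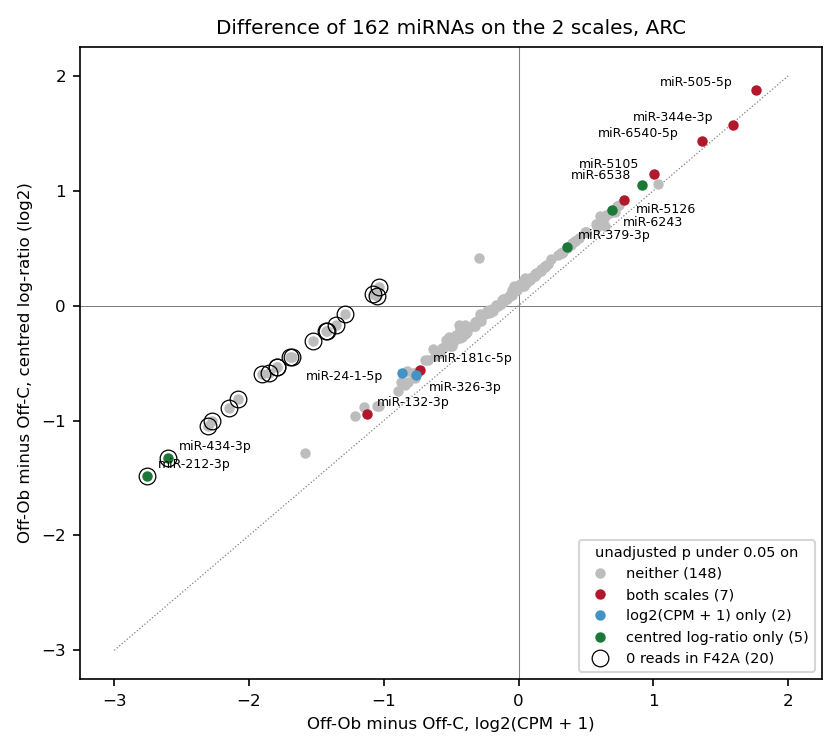
Difference of Off-Ob minus Off-C for 162 miRNAs on log2(CPM + 1) (horizontal) and on the centred log-ratio (vertical), both in log2 units, with the dotted line marking equal values. Colours mark the miRNAs past an unadjusted p of 0.05 on both scales (7), on one, or on neither, and the 20 ringed miRNAs, with 0 reads in F42A, sit above the line by 1.13 to 1.30.

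The scale decided the sign of 23 of the 162 differences. Over all miRNAs, 67 were higher and 105 lower in Off-Ob mice on log2(CPM + 1), with a median difference of -0.16, against 80 higher and 82 lower on the centred log-ratio, with a median of -0.015. For the 142 miRNAs with at least 1 read in F42A, centring moved the difference by a median of 0.15. For the 20 miRNAs without a read there it moved it by a median of 1.25, since log2(CPM + 1) sets a missing read at 0 whereas 1 read of that library stood for 93.8 CPM. A count of 0 in F42A allows 3 reads, or 0.0632% of its reads outside let-7. For 4 of the 20 miRNAs, miR-212-3p, miR-467a-5p, miR-770-5p and miR-434-3p, every Off-C library was above that share, and for the other 16 the depth of F42A could not show a difference from every Off-C library. Differences of at least 1 in size numbered 31 on log2(CPM + 1) and 11 on the centred log-ratio.

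F42A and F6A moved together. On the centred log-ratio both lay above all 9 other libraries for 35 of 162 miRNAs and below all 9 for 40, together 46.3%. In the direction of the difference itself they were the 2 most extreme libraries for 45.1% of the miRNAs, and for 10 of the 12 past the unadjusted threshold, miR-181c-5p and miR-6243 being the exceptions. Across miRNAs the median SD among the 5 Off-Ob libraries was 0.78, and it was 0.32 among the 3 without F42A and F6A, against 0.45 among the 6 Off-C libraries. Without both libraries 3 miRNAs were past the unadjusted threshold on each scale, miR-181c-5p and miR-341-3p as lower and miR-495-3p as higher, and none past the adjusted one. Of the miRNAs past the threshold with all 11 libraries, only miR-181c-5p was among these 3. Where F42A and F6A were the 2 most extreme libraries in the direction of a difference, leaving them out reduces that difference by construction. What set F42A and F6A apart was not tested.

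Single libraries moved the count of miRNAs past the unadjusted threshold in both directions. On the centred log-ratio it was 5 without F42A, 6 without F6A and 7 without RC11A, but 19 without F12A and 24 without F41A. On log2(CPM + 1) it was 6 without F42A, 3 without F6A, 4 without RC5A, 4 without RC9A, 5 without RC11A and 5 without RC13A, but 19 without F12A and 25 without F41A. Without F13A it was 17 on the centred log-ratio and 14 on log2(CPM + 1). Thus the counts were higher without F12A, F13A or F41A, and lower without F42A, F6A or any Off-C library, where they were 7 to 11 on the centred log-ratio and 4 to 8 on log2(CPM + 1).

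miR-505-5p, the miRNA that the study followed, had the widest difference of the 162 miRNAs on the centred log-ratio. It had 107 reads in F42A, 77 in F6A, 46 in F41A, 31 in F12A and 24 in F13A, against 8 to 42 reads with a median of 16 in Off-C libraries. On the centred log-ratio it was at 4.05 in F42A, 1.93 in F6A, -0.41 in F41A, -0.49 in F12A and -0.43 in F13A, against -1.73 to 0.61 with a median of -1.17 in Off-C mice. F42A and F6A lay above every Off-C library, and the other 3 Off-Ob libraries lay within the Off-C range, all of them above the Off-C mean. Off-Ob mice averaged 0.93 ± 2.03 (SD, n = 5), against -0.94 ± 0.83 (SD, n = 6) for Off-C mice, a difference of 1.87 (SE 0.76, 95% interval 0.24 to 3.51, adjusted p = 0.57 from limma). On log2(CPM + 1) the difference was 1.76 (SE 0.77, adjusted p = 0.49 from limma). An exact permutation test over the 11 libraries gave a two-sided p of 0.0736 on either scale, taken as 2 times the smaller tail, where the smallest possible p is 0.00433. On the centred scale the difference was 1.09 without F42A, 1.62 without F6A and 0.50 without both.

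**Figure D3:**
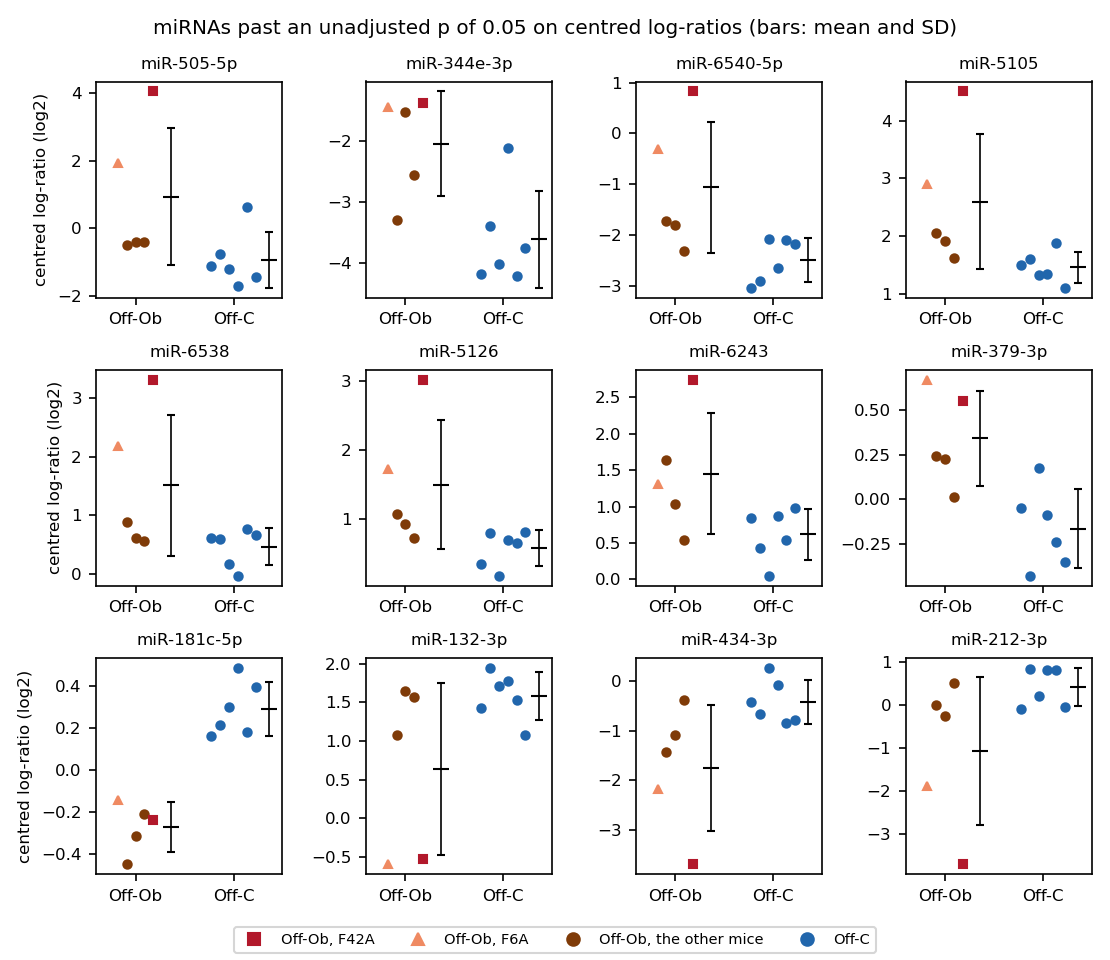
Centred log-ratio (log2) in each ARC library for the 12 miRNAs past an unadjusted p of 0.05, with Off-Ob left of Off-C and the mean and SD beside each group. F42A (square) and F6A (triangle) lie beyond all other libraries in 10 of the 12 panels, and in the panel of miR-181c-5p all 5 Off-Ob libraries lie below the 6 Off-C libraries.

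miR-181c-5p was the steadiest of the lower miRNAs. It belongs to the miR-181 family, which is enriched in brain and lymphocytes, and its mature arm lies at chr8:84178924-84178945 of GRCm38 on the minus strand, in an intron of Nanos3. Its centred log-ratio was -0.14 in F6A, -0.45 in F12A, -0.31 in F13A, -0.21 in F41A and -0.24 in F42A, against 0.17 to 0.49 with a median of 0.26 in Off-C mice. The groups did not overlap, which was the case for this 1 miRNA of 162 (0.617%) on the centred scale and of 172 (0.581%) on log2(CPM + 1). The centred difference of miR-181c-5p was -0.56 (SE 0.20, 95% interval -0.998 to -0.12, adjusted p = 0.57 from limma). It was -0.57 without F42A, -0.59 without F6A and -0.61 without both. F12A and F13A, not F42A and F6A, were the lowest libraries here, and the spread was small in both groups, with SDs of 0.12 in Off-Ob and 0.13 in Off-C mice. Since limma draws the spread of each miRNA towards that of miRNAs at a similar level, this SE and adjusted p do not measure these SDs alone. The SDs alone would give a smaller SE. The difference rested on 5 to 53 reads per Off-Ob library and 30 to 50 per Off-C library. The other 2 measured miRNAs with its seed did not follow it, as miR-181a-5p had a difference of 0.12 (SE 0.28) and miR-181b-5p of 0.17 (SE 0.37) on the centred scale, and -0.045 and -0.036 on log2(CPM + 1). Without F42A and F6A the centred difference was 0.074 for miR-181a-5p and -0.12 for miR-181b-5p.

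miR-132-3p and miR-212-3p are raised by neuronal activity through the transcription factor CREB and act on dendrite growth and synapses. They come from neighbouring hairpins on chromosome 11, at chr11:75173682-75173747 and chr11:75173388-75173478 on the plus strand, whose starts are 294 bases apart in an intron of 1700016P03Rik. The centred log-ratio of miR-132-3p was -0.53 in F42A and -0.59 in F6A, and 1.08 to 1.65 in the other 3 Off-Ob mice, against 1.08 to 1.95 with a median of 1.63 in Off-C mice. That of miR-212-3p was -3.70 in F42A, where it had no read, and -1.89 in F6A, with -0.26 to 0.50 in the other 3 Off-Ob mice, against -0.083 to 0.82 with a median of 0.51 in Off-C mice. In both cases the lowest values belonged to F42A and F6A, and the other Off-Ob libraries overlapped with Off-C. The difference was -0.94 (SE 0.42) for miR-132-3p and -1.49 (SE 0.62) for miR-212-3p, and without both libraries it was -0.15 and -0.34. The passenger arm miR-132-5p, with 2 to 14 reads per library, had a difference of -0.13 (SE 0.46), and it was lower without both libraries too, at -0.43. Of the 4 miRNAs listed as activity-regulated, 3 were measured and all 3 were lower on both scales, although 2 of them share a hairpin. miR-212-3p was past the unadjusted threshold on the centred scale only.

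miR-434-3p, from the imprinted Dlk1-Dio3 cluster at chr12:109594506-109594599, was the other lower miRNA that came in with centring. It had no read in F42A, 4 in F6A, 16 in F12A, 15 in F13A and 47 in F41A, against 15 to 48 reads with a median of 22.5 in Off-C libraries. Its centred log-ratio was -3.70 in F42A, -2.18 in F6A, -1.42 in F12A, -1.09 in F13A and -0.38 in F41A, against -0.84 to 0.27 in Off-C mice. Only F41A reached into the Off-C range, and the difference was -1.33 (SE 0.49) with all libraries and -0.54 without F42A and F6A. miR-24-1-5p and miR-326-3p, lower on log2(CPM + 1) by 0.87 (SE 0.35) and 0.76 (SE 0.34), had centred differences of -0.59 (SE 0.29) and -0.60 (SE 0.30), on the other side of the threshold. Without both libraries miR-24-1-5p was still at -0.56, from 1 to 16 reads per library, whereas miR-326-3p, which is encoded in an intron of Arrb1 and is enriched in brain, was at -0.12.

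On the higher side, miR-344e-3p had the smallest p on the centred scale. It belongs to a brain-expressed miRNA group on chromosome 7, at chr7:61735537-61735602 on the minus strand, in an intron of the long noncoding RNA A230057D06Rik. It had only 7 reads in F6A, 4 in F12A, 11 in F13A, 10 in F41A and 2 in F42A, against 1 to 6 reads with a median of 2 in Off-C libraries. Its centred log-ratio was -1.44 in F6A, -3.30 in F12A, -1.52 in F13A, -2.56 in F41A and -1.37 in F42A, against -4.21 to -2.12 in Off-C mice. All 5 Off-Ob libraries were above the Off-C mean and 3 were above every Off-C library. The difference was 1.57 (SE 0.49, 95% interval 0.51 to 2.63), and it was 1.15 without F42A and F6A, the widest that remained among the 12. miR-344d-3p, which shares its seed and lies 9288 bases away by hairpin start, had a difference of 0.53.

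miR-379-3p, from the Dlk1-Dio3 cluster, differed the least of the 12. It reached a centred log-ratio of 0.67 in F6A, 0.25 in F12A, 0.23 in F13A, 0.015 in F41A and 0.55 in F42A, against -0.43 to 0.18 with a median of -0.16 in Off-C mice. All but F41A were above every Off-C library, with a difference of 0.51 (SE 0.23) and of 0.33 without F42A and F6A. Its seed partner miR-411-3p from the same cluster had a difference of 0.034.

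The remaining 5 higher miRNAs, miR-6540-5p, miR-5105, miR-5126, miR-6243 and miR-6538, all carry a miRBase number of 2000 or above. On the centred scale 5 of the 13 measured entries of this range were past the threshold as higher, against 4.94% of all 162 miRNAs. Many entries of this range are known from few reads, and their standing as miRNAs is doubtful. miR-5105 had 151 reads in F6A, 184 in F12A, 123 in F13A, 189 in F41A and 147 in F42A, against 71 to 126 in Off-C libraries. Its centred log-ratio was 2.89 in F6A, 2.06 in F12A, 1.91 in F13A, 1.62 in F41A and 4.51 in F42A, against 1.10 to 1.88 with a median of 1.42 in Off-C mice. miR-5126 showed the same order, with 3.02 in F42A, 1.73 in F6A and 0.73 to 1.08 in the other Off-Ob mice, against 0.18 to 0.82 in Off-C mice. In each, 4 of 5 Off-Ob libraries were above every Off-C library, by a wide margin in F42A and F6A only.

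miR-6540-5p had 9 to 16 reads per Off-Ob library and 3 to 9 per Off-C library. It was at a centred log-ratio of 0.83 in F42A, -0.30 in F6A and -2.31 to -1.71 in the other Off-Ob mice, against -3.03 to -2.08 in Off-C mice. miR-6538 reached 3.32 in F42A and 2.18 in F6A, with 0.57 to 0.88 in the other Off-Ob mice, against -0.034 to 0.77 in Off-C mice. For miR-6243 the highest libraries were F42A at 2.75 and F12A at 1.63, with 0.53 to 1.31 in the other Off-Ob mice, against 0.045 to 0.98 in Off-C mice. The 5 differences were 1.43 (SE 0.51) for miR-6540-5p, 1.14 (SE 0.43) for miR-5105, 1.05 (SE 0.45) for miR-6538, 0.92 (SE 0.37) for miR-5126 and 0.83 (SE 0.35) for miR-6243. Without F42A and F6A they were 0.55, 0.40, 0.23, 0.33 and 0.45 in the same order, all still above 0. Over all 162 miRNAs 80 were higher and 82 lower on the centred scale, with a median of -0.015, or 0.0035 without both libraries. Over the 13 measured entries numbered 2000 or above, 8 were higher and 5 lower, with a median of 0.76, or 0.095 without both. Together they took 12.3% of the reads outside let-7 in F42A, 4.13% in F6A and 2.77 to 4.33% in the other Off-Ob libraries, against 2.37 to 3.58% in Off-C libraries.

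**Figure D4:**
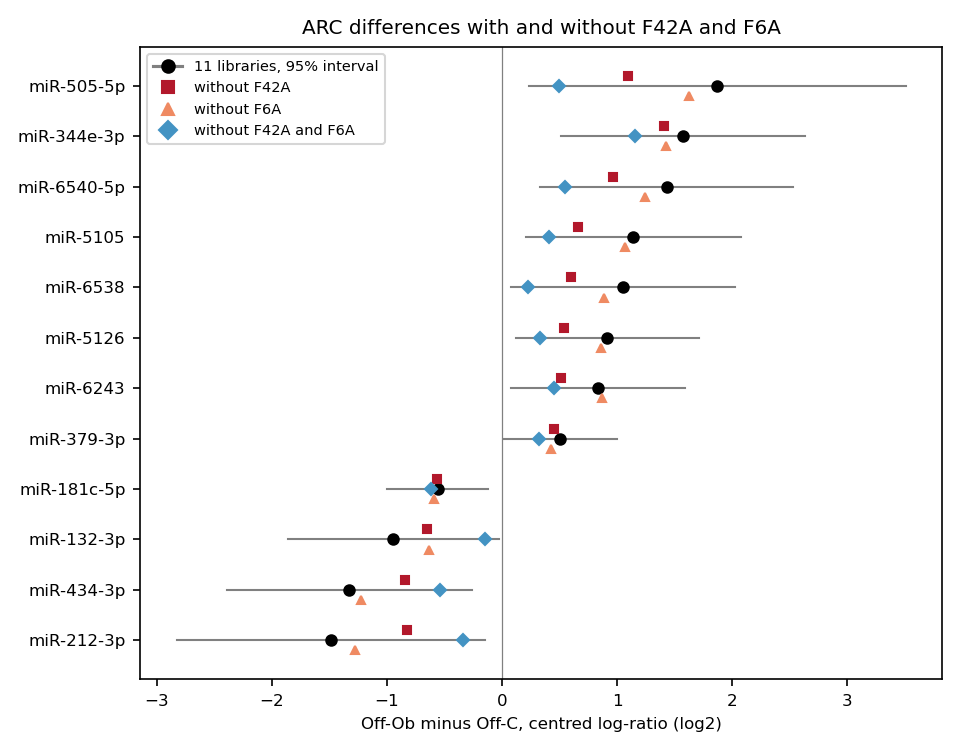
Difference of Off-Ob minus Off-C on the centred log-ratio (log2) for the same 12 miRNAs, with all 11 libraries (circle, with its 95% interval), without F42A (square), without F6A (triangle) and without both (diamond). 11 of the 12 differences come closer to 0 without both libraries, and that of miR-181c-5p stays at -0.61. In 10 of the 12, F42A and F6A are the most extreme libraries in the direction of the difference, so leaving them out reduces it by construction.

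The let-7 family itself was examined on log2(CPM + 1), and against the centre of the other 162 miRNAs. let-7 miRNAs are abundant in mature neurons and restrain genes of growth and of early development. All 10 measured members were higher in Off-Ob mice on log2(CPM + 1), with a median difference of 0.74, and without F42A and F6A 4 were higher and 6 lower, with a median of -0.020. Against the other miRNAs, let-7c-5p, the most read member, was at 10.33 in F42A, 9.29 in F6A and 7.20 to 7.79 in the other Off-Ob mice, against 7.10 to 8.11 in Off-C mice. let-7d-5p, let-7e-5p, let-7f-5p, let-7k, let-7b-5p, let-7a-5p and miR-98-5p showed the same 2 libraries on top. Their differences were from 0.58 for let-7b-5p to 1.08 for let-7a-5p on that scale, and from -0.17 to 0.20 without both libraries. let-7g-5p was highest in the same libraries too, at 7.69 in F42A and 7.80 in F6A. It was at 6.43 to 6.94 in the other Off-Ob mice, against 6.23 to 6.68 in Off-C mice. Its difference there was 0.64, and 0.25 without both libraries.

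The excess in F42A and F6A was not even within the family. let-7c-5p made up 46.6% of the let-7 reads in F42A and 41.9% in F6A, with 33.7 to 36.9% in the other Off-Ob libraries, against 33.8 to 39.6% in Off-C libraries. let-7g-5p made up only 7.44% in F42A and 14.95% in F6A, with 19.9 to 23.5% in the other Off-Ob libraries, against 14.7 to 21.8% in Off-C libraries. let-7i-5p made up 0.864% and 1.52% there, with 3.51 to 7.39% in the other Off-Ob libraries, against 2.45 to 8.40% in Off-C libraries. let-7i-5p was thus the member that did not stand out, at 4.59 in F42A and 4.50 in F6A against the other miRNAs, within the Off-C range of 3.99 to 5.08. let-7g-5p, the member past the unadjusted threshold on log2(CPM + 1), had a difference of 0.50 (SE 0.21), and of 0.23 without both libraries. How reads that fit several members were assigned is not given in the sources used here, so the split between members is uncertain.

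Within a window of 10000 bases by hairpin start on the same strand, 1 let-7 locus had measured neighbours of other families. let-7e-5p, miR-99b-5p and miR-125a-5p come from 1 stretch of chromosome 17, in which the start of Mirlet7e lies 460 bases from that of Mir125a. The log2(CPM + 1) difference was 0.73 for let-7e-5p, -0.50 for miR-99b-5p, -0.77 (SE 0.38) for miR-125a-5p and -0.12 for miR-125a-3p, the other arm of the same hairpin. The centred log-ratio of miR-125a-5p was 4.60 in F42A, 4.78 in F6A, 6.03 in F12A, 6.15 in F13A and 6.37 in F41A, against 5.98 to 6.47 in Off-C mice. Only F42A and F6A left the Off-C range, and the centred difference of -0.63 (SE 0.30) was -0.032 without them.

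Among neuron-enriched miRNAs, 17 of 20 listed were measured, and 7 were higher and 10 lower in Off-Ob mice on the centred scale, with a median of -0.18, against 80 higher and 82 lower with a median of -0.015 over all 162. miR-132-3p and miR-212-3p, from neighbouring hairpins, were the 2 of 17 past the unadjusted threshold, both lower, where 7.41% of all 162 were past it and 2.47% were lower. Their differences without F42A and F6A were -0.15 and -0.34. miR-9-5p, which acts in neural progenitors and neurons, was at 1.16 in F42A and 0.96 in F6A and at 3.42 to 3.82 in the other Off-Ob mice, against 2.89 to 3.74 in Off-C mice. Its opposite arm miR-9-3p was not low in these libraries, reaching 2.87 in F6A and 2.71 in F42A, where Off-C mice held 1.40 to 2.59. The centred difference was -0.74 (SE 0.50) for miR-9-5p and 0.46 (SE 0.27) for miR-9-3p, and without F42A and F6A it was 0.28 and 0.33. miR-153-3p, which acts on synaptic vesicle release, was at 0.39 in F42A and 0.99 in F6A and at 2.67 to 3.70 in the other Off-Ob mice, against 2.30 to 3.48 in Off-C mice, a difference of -0.88 (SE 0.53) that turned to 0.12 without both. miR-149-5p was below the Off-C mean in all 5 Off-Ob libraries, with a centred difference of -0.35 (SE 0.19). miR-124-3p, a hallmark miRNA of neurons, held just 3 to 11 reads per Off-Ob library and 4 to 12 per Off-C library, and its difference was 0.34 (SE 0.39). On log2(CPM + 1) the list had 5 higher and 12 lower, and without F42A and F6A it had 8 and 9 on either scale.

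**Figure D5:**
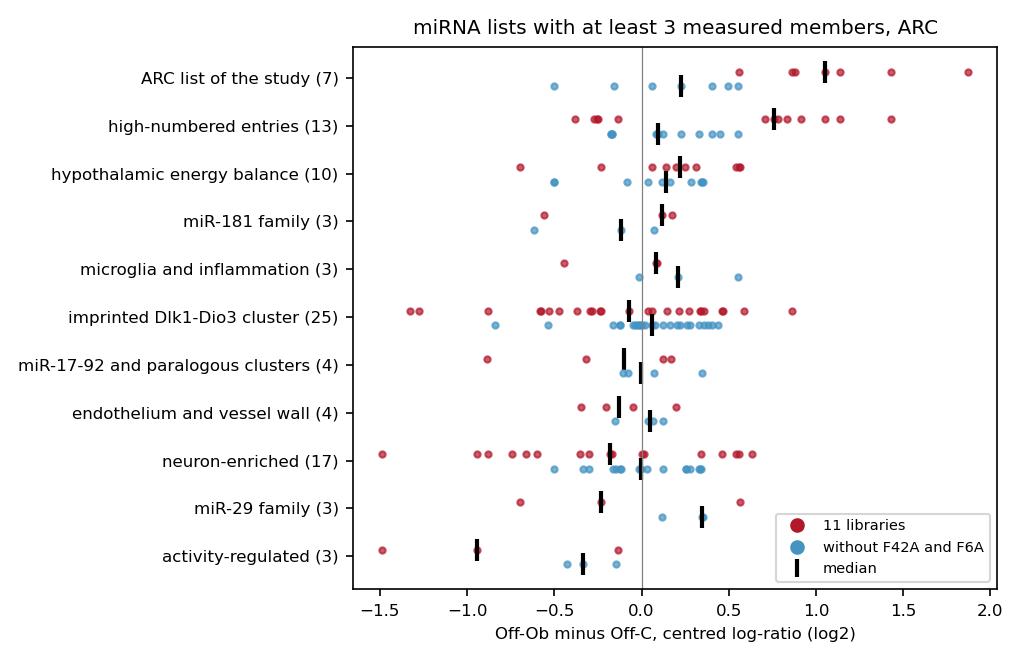
Difference of Off-Ob minus Off-C on the centred log-ratio (log2) for each measured member of the lists with at least 3 members (number in brackets), with all 11 libraries (red) and without F42A and F6A (blue), and a bar at each median. Medians move towards 0 or across it without the 2 libraries in most lists, and that of the 3 activity-regulated miRNAs goes to -0.34.

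Of 17 miRNAs tied to feeding or Pomc neurons in mouse work, 10 were measured. On the centred scale 8 were higher and 2 lower, with a median of 0.22, on log2(CPM + 1) 6 and 4, and 0 passed the unadjusted threshold on either. Over all miRNAs 80 were higher and 82 lower on the centred scale, with 7.41% past the threshold. On log2(CPM + 1) 67 were higher and 105 lower, with 5.81% past it. miR-7a-5p, the most read miRNA outside let-7 and a marker of hypothalamic neuroendocrine neurons, took 31.8 to 36.7% of the reads outside let-7 in Off-Ob and 26.4 to 34.2% in Off-C libraries. Its centred difference was 0.20 (SE 0.12, 95% interval -0.053 to 0.44), and 0.28 without F42A and F6A, with 4 of 5 Off-Ob libraries above the Off-C mean. miR-29a-3p, of the collagen-targeting miR-29 family, was above the Off-C mean in all 5 Off-Ob libraries, at 0.57 (SE 0.29), while miR-29b-3p was at -0.23 (SE 0.25) and miR-29c-3p at -0.70 (SE 0.64). Without F42A and F6A all 3 were above 0. miR-103-3p and miR-107-3p, which target caveolin in insulin signalling, were at 0.062 (SE 0.49) and 0.32 (SE 0.46) on the centred scale, at -0.11 and 0.17 on log2(CPM + 1), and at -0.50 and -0.084 on the centred scale without F42A and F6A.

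The imprinted Dlk1-Dio3 cluster, expressed from the maternal chromosome 12 and high in brain, had 25 of its 51 listed miRNAs in the table. On the centred scale 12 were higher and 13 lower, with a median of -0.072, against -0.015 over all miRNAs. On log2(CPM + 1) 9 were higher and 16 lower. The list lacked other measured miRNAs of the region, so these counts do not cover the whole cluster. Of those, miR-379-3p and miR-666-3p were at 0.51 and 0.64 on the centred scale. miR-770-5p, miR-323-5p, miR-1193-3p and miR-376b-5p were at -1.05, -0.54, -0.31 and -0.034. Neighbours went both ways, since miR-434-3p was at -1.33 while miR-127-3p, 1660 bases from it by hairpin start, was at 0.33. miR-341-3p and miR-495-3p, the pair past the unadjusted threshold without F42A and F6A, were then at -0.84 and 0.38, each with an adjusted p of 0.93 from limma. With all libraries they were at -0.37 (SE 0.36) and 0.059 (SE 0.22), and F42A and F6A lay on the far side of the other Off-Ob libraries in both. miR-667-3p had 1 read in F42A and 2 in F6A, with 50 to 119 in the other Off-Ob libraries, against 35 to 85 in Off-C libraries.

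Lists of other cell types gave no miRNA past the unadjusted threshold, where 7.41% of all miRNAs were past it on the centred scale and 5.81% on log2(CPM + 1). With so few members measured, this says little about these cell types. Of the vessel list 4 of 6 were measured, with 1 higher and 3 lower on the centred scale and a median of -0.13. Microglia and inflammation had 3 of 7, with miR-146a-5p, miR-146b-5p and miR-21a-5p at a median of 0.083 on the centred scale and all 3 lower on log2(CPM + 1), and the defining miR-142a, miR-223 and miR-155 were not among the 172 miRNAs analysed. Oligodendrocytes had 2 of 4, both lower, at a median of -0.13. The miR-17-92 and paralogous clusters had 4 of 13, with 2 higher and 2 lower at a median of -0.098. Of 10 miRNAs of pituitary and epithelium, miR-7a-5p was the 1 measured, and of 4 red blood cell miRNAs none was. In reads outside let-7, the microglia list took 0.464% in F42A, 0.835% in F6A and 0.581 to 0.690% in the other Off-Ob libraries, against 0.530 to 0.741% in Off-C libraries, and the vessel list 1.99 to 2.59% in Off-Ob and 1.62 to 4.82% in Off-C libraries. In tissue such as this, fewer cells of a type and less of a miRNA per cell cannot be told apart.

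The study lists 14 miRNAs for the ARC, and all 14 were higher in Off-Ob mice on log2(CPM + 1), as were the 7 of them outside let-7 on the centred scale. The list was chosen on these libraries, by the study's edgeR test, so its direction is not independent evidence. Without F42A and F6A 5 of the 7 were higher and 2 lower on the centred scale, with a median of 0.23 against 1.05 with all libraries. The members not yet described are miR-485-5p, miR-1224-3p and miR-383-5p, with centred differences of 0.86 (SE 0.45), 0.88 (SE 0.58) and 0.56 (SE 0.57). miR-383-5p was at 2.41 in F42A and 1.13 in F6A and at -0.91 to -0.80 in the other Off-Ob mice, against -1.12 to 0.43 in Off-C mice, so its difference turned to -0.50 without both libraries. That of miR-1224-3p turned to -0.16 and that of miR-485-5p was 0.058.

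Against the PVH of the same cohort, no difference was shown to be particular to the ARC. In the PVH 0 miRNAs (0%) reached an unadjusted p of 0.05 on either scale. The test of the ARC difference against the PVH difference gave 0 miRNAs past an adjusted p of 0.05, and 5 past an unadjusted one on each scale, which is 2.91% on log2(CPM + 1) and 3.09% on the centred log-ratio. miR-505-5p was in both sets. Its centred difference was 1.87 in the ARC and -0.25 (SE 0.31) in the PVH, and the 2 differed by 2.13 (SE 0.89, adjusted p = 0.78, limma with mouse as a block). The other 4 on the centred scale were miR-5105, miR-5126, miR-212-3p and miR-369-5p. For miR-181c-5p the PVH difference was -0.18 (SE 0.22), of the same sign as in the ARC, and the 2 differed by -0.38 (adjusted p = 0.78 from limma). Without the ARC libraries of F42A and F6A, 0 miRNAs were past the unadjusted threshold of this test on either scale.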

How the data were processed

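Small RNA libraries (TruSeq Small RNA) of laser-captured nuclei were mapped by the authors with Bowtie 1.2.3 to GRCm38 and scaled with edgeR 3.36.0. The deposited log2 values are log2(CPM + 1), with CPM taken over the listed miRNAs, adjusted by a scale factor per library, by the authors. The study's methods name RPKM, but the values carry no length term. Annotation, filter and multi-matching reads are not given in the sources used here. Whole reads were recovered from the steps of the values (3784 of 3784 values within 0.01 of a whole read), and library totals and factors from them. The ARC libraries held 22680 to 91790 reads, so 1 read stood for 10.6 to 93.8 CPM.

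Off-Ob and Off-C ARC libraries were compared with limma 3.58.1 (R 4.3.3; empirical Bayes with trend, two-sided, Benjamini-Hochberg over all miRNAs) on the log2(CPM + 1) values and on centred log-ratios with 0.5 reads added. ARC and PVH differences were compared over 22 libraries from 12 mice, 10 of them with both nuclei, with the mouse as block. Tables were made with Python 3.11.15, NumPy 2.4.6, pandas 2.3.3, SciPy 1.17.1 and matplotlib 3.10.9. Columns give group and mouse but not a single sample record. Where separate litters are not shown by the labels, p-values measure the spread between these libraries only. Named miRNAs were those past an unadjusted p of 0.05 on either scale, the 8 of smallest p in each direction, those the study lists for the ARC, and every let-7 member. Others, named as list members or seed and hairpin neighbours, were chosen after their values were seen. The members and lists were chosen with earlier results of these data known. Alternatives were other pseudocounts, scalings, centres, filters and weights, limma-voom, and leaving out libraries. Simulated libraries had the same depths, but both groups took the mean profile and a common read dispersion of the Off-C libraries. At an adjusted p of 0.05, limma recovered 63.0% of log2 changes of 1 and 94.1% of 2 there on the centred scale. On log2(CPM + 1) it recovered 57.0% and 91.5%. No simulated library had the profile of F42A or F6A, so these shares do not hold for the wider spread among the real Off-Ob libraries.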

Additional observations from a re-analysis of the deposited data

Results flagged for a closer look

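Within the 5 Off-Ob libraries of the ARC, 3 of 118 groups of values held 1 library so far from the rest that its gap passed Dixon's 95% critical value, where chance alone gives about 1 in 20 groups. All 3 were values of F42A. miR-434-3p was at 0 on log2(CPM + 1) in F42A, where it had no read, with the next lowest library at 6.62. miR-5126 was at 12.25 in F42A, with the next highest library at 10.67. The number of miRNAs without a read was 20 in F42A, with the next highest at 2.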

How the results depend on the processing

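No adjusted p of 0.05 was reached in the ARC under any alternative run. On log2(CPM + 1) the count past an unadjusted p of 0.05 was 10. Leaving out 1 library gave 3 to 25, with 2 to 10 higher, 1 to 15 lower and 0 past the adjusted threshold. Without both F42A and F6A, an alternative chosen after seeing the data, it was 3, with 1 higher and 2 lower. Library weights gave 3 higher, a median-ratio scaling 2 lower, and plain CPM 11 lower among 15. On the centred log-ratio, with 12, leaving out 1 library gave 5 to 24, with 3 to 12 higher, 2 to 12 lower and 0 past the adjusted threshold. Without both F42A and F6A it was 3, with 1 higher and 2 lower, while library weights gave 5 higher and a pseudocount of 1 CPM gave 0 lower. For the difference between ARC and PVH, 5 on each scale became 0 and 0 without both. The median of all differences was -0.16 on log2(CPM + 1), -0.52 on plain CPM and -0.060 with the median-ratio scaling.

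Among the 32 miRNAs named by rule on log2(CPM + 1) and 22 on the centred log-ratio, and not the further list members or neighbours, these signs turned. On log2(CPM + 1) they were those of let-7b-5p (-0.0555 with library weights, -0.14 without both), let-7d-5p (-0.035 and -0.20), miR-1224-3p (-0.036 and -0.17) and miR-383-5p (-0.48 and -0.52). Without both libraries alone, let-7c-5p turned to -0.037, let-7e-5p to -0.038, let-7f-5p to -0.0030 and let-7k to -0.059. let-7i-5p was at -0.32 on plain CPM and -0.099 to 0.17 when 1 library was left out, and miR-383-5p was at -0.13 to 0.67. On the centred log-ratio miR-1224-3p turned to -0.16 without both, and miR-383-5p to -0.38 with library weights and -0.50 without both. The cause of these turns was not tested. No paired analysis was possible because, between Off-Ob and Off-C mice, the columns carry no replicate number of the labels and no pairing is known. The labels number the mice within each group, and the groups had different mothers, so these numbers alone would not pair Off-Ob with Off-C mice. The mouse was a block only between ARC and PVH, where the fit without it gave 7 past the unadjusted threshold on log2(CPM + 1) and 5 on the centred log-ratio. The depth of F42A, with 4746 reads outside let-7, limits every value at or near 0 there.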

Other observations

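Base composition of the mature sequence was set beside the centred difference of Off-Ob minus Off-C for the 139 matched miRNAs, as a description across miRNAs that share libraries and depth. With all 11 libraries Pearson's r with the GC share was 0.21 and Spearman's rho 0.18, and without F42A and F6A they were -0.23 and -0.33. Of the 27 miRNAs under 40% GC, 11 were higher in Off-Ob mice with all libraries and 22 without F42A and F6A, with a median of 0.28. Of the 32 miRNAs with at least 60% GC, 14 were higher with all libraries and 9 without F42A and F6A, with a median of -0.13. The order of the composition classes thus differed with and without the 2 libraries, and its part in the single differences was not tested.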
